A study of Mus musculus with 23 samples.

Results

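The 10 genes described here encode the proteins that decide whether a macrophage survives, undergoes apoptosis or undergoes necroptosis once the kinase RIPK1 is engaged: Ripk1, Ripk3, Mlkl, Zbp1, Casp8, Fadd, Cflar, Birc2, Birc3 and Xiap. They were taken as the genes to which the accessions of the array probes map, and all 10 were measured among 26512 genes in all. They are covered by 13 of 55681 probes, with 3 probes for Cflar, 2 for Zbp1 and 1 for each of the other genes, and all 13 probes were well above background on all 23 arrays.

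The samples were bone marrow-derived macrophages (BMDM) of male C57BL/6 mice aged 10 to 14 weeks, differentiated for 9 days with M-CSF (10 ng/ml) and then kept for 120 min in medium alone or in medium with LPS (100 ng/ml), the Toll-like receptor 4 ligand. The mice were wild-type (wt), deficient in MK2 (MK2-/-), or deficient in both MK2 and MK3 (MK2/3-/-), the kinases that p38 MAPK activates. Both deficiencies were present in every cell of the animal and not confined to macrophages. There were 4 arrays in each group except MK2-/- medium, which had 3, and each array was hybridised with RNA of 1 sample. MK2 phosphorylates RIPK1, and the comparisons below ask whether transcripts of RIPK1 and its partners change with LPS and with the loss of MK2 or of both kinases. The arrays measure mRNA, not protein, phosphorylation or cell death.

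Downstream of tumour necrosis factor receptor 1, RIPK1 is recruited to a membrane complex in which the ubiquitin ligases cIAP1 and cIAP2 (encoded by Birc2 and Birc3) modify it, and NF-κB signalling follows. When this complex is disturbed, RIPK1 joins the adaptor FADD and caspase-8, whose activity is held in check by cFLIP (encoded by Cflar), or it engages RIPK3, which phosphorylates the necroptosis executor MLKL. ZBP1 senses nucleic acids and can engage RIPK3 without RIPK1, and XIAP binds and inhibits caspases. In macrophages LPS can feed the same machinery through the adaptor TRIF.

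Levels are given as normalized log2 signal of a gene's probe, so that a difference of 1 is a doubling of signal. Levels of different genes come from different probes and are not compared. A gene is called changed when its Benjamini-Hochberg adjusted p in limma over all 26512 genes was under 0.05. In such bulk samples fewer cells of a type and less RNA per cell cannot be told apart.

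The arrays of each genotype lay on 1 slide of their own, so genotype and slide cannot be told apart. On every slide, medium arrays filled 1 row and LPS arrays the other, so row and treatment cannot be told apart. The culture letter of an array, taken from the deposited arrays, followed the slide column on every slide, so letter and column cannot be told apart. The share of probes well above background ran from 47.5% to 69.1%, both extremes in MK2/3-/- medium (replicates 1 and 2), and the scanner software fitted no gradient on 2 arrays, MK2-/- LPS replicate 1 and MK2/3-/- medium replicate 2. Mapkapk2 (MK2) averaged 12.22 ± 0.51 (SD, n = 4) in wt medium against 8.91 ± 0.17 (n = 3) in MK2-/- medium and 8.72 ± 0.16 (n = 4) in MK2/3-/- medium. Mapkapk3 (MK3) averaged 14.01 ± 0.24 in wt LPS, 13.98 ± 0.14 in MK2-/- LPS and 10.70 ± 0.26 in MK2/3-/- LPS (n = 4 each). In medium Mapkapk3 averaged 13.50 ± 0.28 in wt (n = 4), 13.74 ± 0.14 in MK2-/- (n = 3) and 11.88 ± 0.22 in MK2/3-/- BMDM (n = 4). Both targeted genes were thus lower than in wt BMDM where the labels said so. Mapkapk2 also stood at 11.96 ± 0.28 in MK2-/- LPS against 14.77 ± 0.49 in wt LPS, and whether its probe lies in the deleted part is not given in the sources used here. The 5 measured macrophage markers were well above background on every array.

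To show the regulatory sequence of the members whose signals are followed most closely below, the 250 bases before the annotated start of transcription are given for Ripk1 (chr13:34002113-34002362, plus strand), Cflar (chr1:58711241-58711490, plus strand) and Birc3 (chr9:7873171-7873420, minus strand), from RefSeq on build GRCm38.p6, 5′ to 3′, with CpG dinucleotides in capitals.
Ripk1: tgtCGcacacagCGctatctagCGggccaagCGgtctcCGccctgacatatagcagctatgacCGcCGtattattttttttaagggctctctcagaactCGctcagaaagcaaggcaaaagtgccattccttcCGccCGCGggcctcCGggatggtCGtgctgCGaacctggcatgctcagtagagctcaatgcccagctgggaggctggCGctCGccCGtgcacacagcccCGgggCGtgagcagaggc
Cflar: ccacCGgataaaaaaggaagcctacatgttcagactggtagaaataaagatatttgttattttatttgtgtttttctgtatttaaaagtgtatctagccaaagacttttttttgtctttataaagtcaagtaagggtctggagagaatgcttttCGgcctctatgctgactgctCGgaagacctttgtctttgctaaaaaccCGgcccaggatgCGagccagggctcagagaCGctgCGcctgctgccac
Birc3: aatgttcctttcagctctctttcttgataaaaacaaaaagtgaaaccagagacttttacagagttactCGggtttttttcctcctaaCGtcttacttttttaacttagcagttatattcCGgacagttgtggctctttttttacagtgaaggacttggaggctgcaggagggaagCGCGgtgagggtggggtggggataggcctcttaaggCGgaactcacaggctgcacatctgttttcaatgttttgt

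The Ripk1 stretch, before the first of 2 annotated starts, held 19 CpG, more than 80.3% of the 32851 promoters in the table. The second Ripk1 promoter (chr13:34002624-34002873) held 32, more than 95.4% of promoters. Cflar with 7 and Birc3 with 6 lay near the median of 6. Fadd and the first of 2 Birc2 promoters also held 19 each, and the second Birc2 promoter held 31 (more than 94.8% of promoters). The windows of 300 bases (250 before to 50 after each start) of the 9 members in the table, 13 windows in all, were searched on both strands for the NF-κB consensus, for the core of the interferon-stimulated response element (ISRE; GAAA, any 2 bases, GAAA) and for the AP-1 motif TGANTCA. Zbp1 has no entry. The NF-κB consensus was found in 1 of 13 member windows (in Xiap) and in 8.46% of all promoters, the ISRE core in 2 of 13 (in Ripk1 and Cflar) and 3.44%, and TGANTCA in 0 of 13 and 7.81%. The matches are given with 10 flanking bases on either side and the matched bases in capitals: that of Ripk1 (chr13:34002859-34002888, at the second annotated start) spans the start itself, that of Cflar (chr1:58711487-58711516, read on the other strand) begins 7 bases into the transcript, and that of Xiap lies at chrX:42068410-42068439, all on the plus strand of GRCm38.p6.
Ripk1, ISRE core: aacgttcccgGAAATCGAAAagcgcggaac
Cflar, ISRE core: ccacgtctgcTTTCGGTTTCtgggcgtctc
Xiap, NF-κB consensus: cccctcctccGGGACCCTCCcctcgggaac
Such matches describe letters in a window and were not tested for binding. Birc2 and Birc3, which showed no match in these windows, are neighbouring genes on chromosome 9, as are Casp8 and Cflar on chromosome 1.

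**Figure D1:**
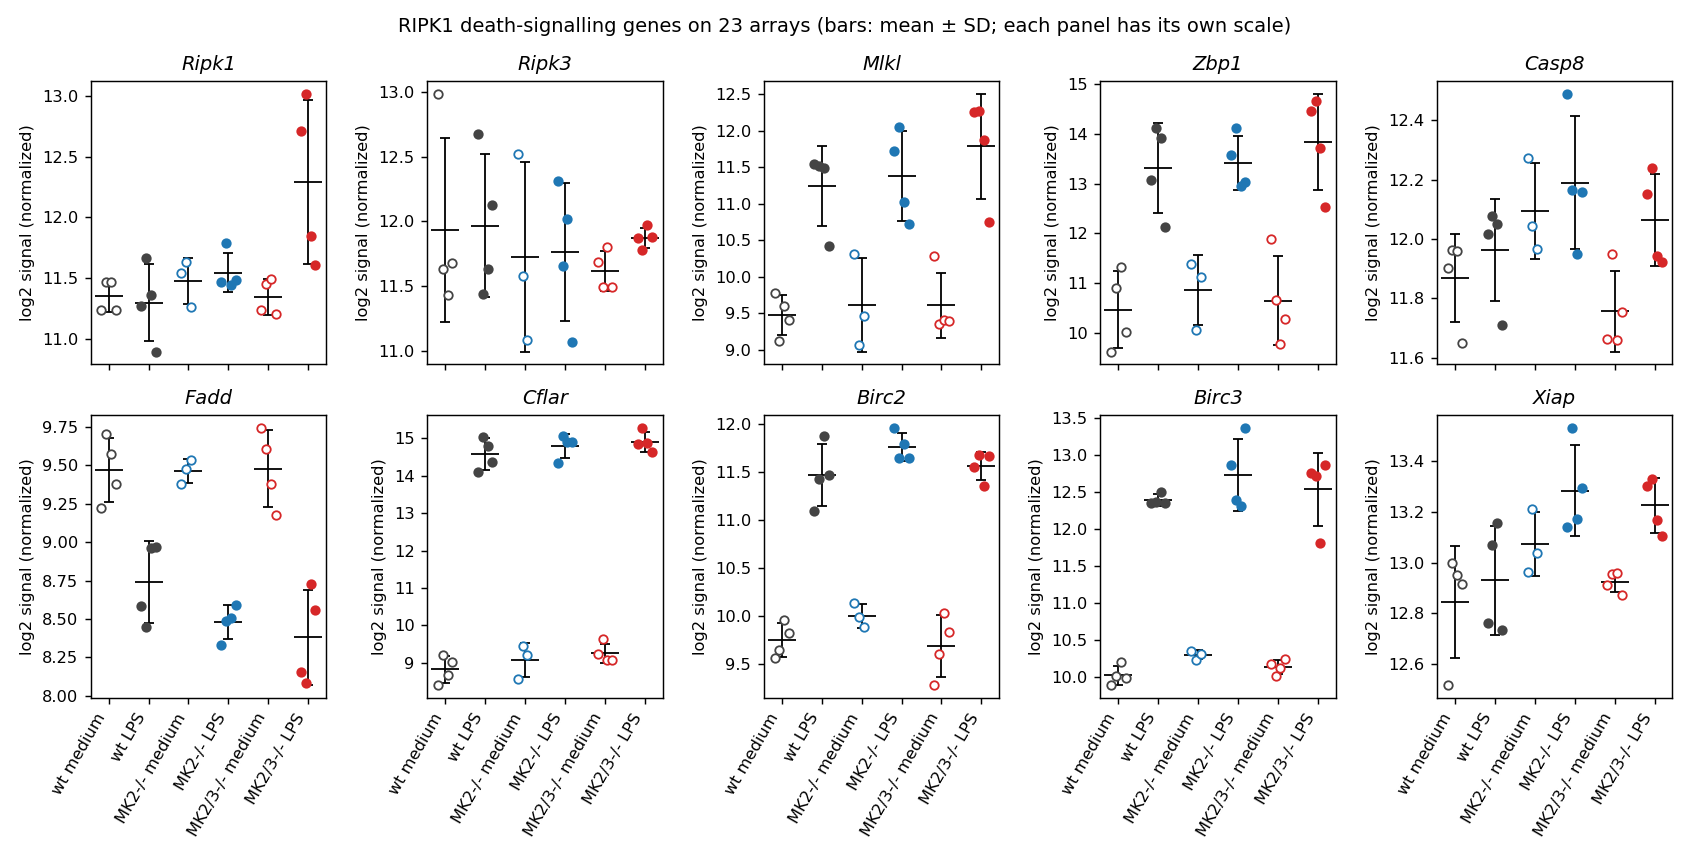
Normalized log2 signal of the 10 genes on each of the 23 arrays (y axis, own scale in each panel) by group (x axis). Points are arrays (open, medium; filled, LPS), and bars give the mean ± SD. Cflar, Birc2, Birc3, Mlkl and Zbp1 are higher and Fadd is lower on the LPS arrays of all 3 genotypes, and Ripk1 stands higher in MK2/3-/- LPS.

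LPS changed the same 6 genes in wt and MK2-/- BMDM, and these 6 together with Ripk1 in MK2/3-/- BMDM. The inhibitors of the death pathway Cflar, Birc2 and Birc3 and the necroptosis genes Mlkl and Zbp1 rose, and the adaptor Fadd fell. Casp8, Ripk3 and Xiap were not called in any genotype by this fit, though Casp8 and Xiap were in MK2/3-/- BMDM under some alternatives given below. In wt BMDM 6 of 10 members were called, against 16.9% of all genes tested, with 5 higher (8.16% of all genes) and 1 lower (8.78%). In MK2-/- BMDM it was again 6 of 10 (18.4% of all genes), 5 higher (8.41%) and 1 lower (9.98%). In MK2/3-/- BMDM it was 7 of 10 (24.7%), 6 higher (11.9%) and 1 lower (12.8%). The members were chosen with earlier results of these data known, so these counts are no test of the pathway against all genes. The median log2 difference of the members was 0.91, 0.99 and 1.41 in the 3 genotypes, where that of all genes was 0.01, -0.01 and -0.02. Medium and LPS arrays did not overlap for 6, 6 and 8 members, and for 22.8%, 32.7% and 26.2% of all genes, in wt, MK2-/- and MK2/3-/- BMDM. For the counts that follow, the matching shares of all genes are not given here, so they are description only. The methods' t-test found 6, 6 and 10 members at its unadjusted threshold and 6, 5 and 7 after Benjamini-Hochberg adjustment.

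Other measures moved with LPS as well. The summed signal of the NK cell markers Ncr1 and Klrb1c, on the log2 scale, ranged over 2.79 to 3.40 in wt medium and 3.51 to 5.43 in wt LPS. The ranges were 3.01 to 3.60 and 4.68 to 5.88 in MK2-/- BMDM and 2.98 to 5.12 and 5.27 to 8.19 in MK2/3-/- BMDM, so that medium and LPS did not overlap in any genotype. Ncr1 was above background on at most 1 array of a group, and Klrb1c on 0 medium arrays and on 2, 2 and 4 of the 4 LPS arrays in wt, MK2-/- and MK2/3-/- BMDM. Single markers of other cell types rose as well. Cd247 (T cells) averaged 1.75, 1.74 and 2.10 in medium and 6.82, 7.43 and 6.38 in LPS in the 3 genotypes. Zbtb46 (dendritic cells) averaged 4.64, 4.88 and 4.29 in medium and 10.14, 10.28 and 10.06 in LPS. Cd3e, Itgax and Flt3, of the same 2 cell types, averaged 10.04, 11.65 and 5.57 in wt medium. In wt LPS these averaged 10.29, 11.82 and 5.63. The share of probes well above background lay between 49.6% and 52.5% on the MK2-/- LPS arrays, below the 54.2% to 55.7% of the MK2-/- medium arrays, and the treatments overlapped in wt (57.1% to 60.7% and 56.2% to 60.8%) and MK2/3-/- BMDM. Their part in the LPS changes was not tested.

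**Figure D2:**
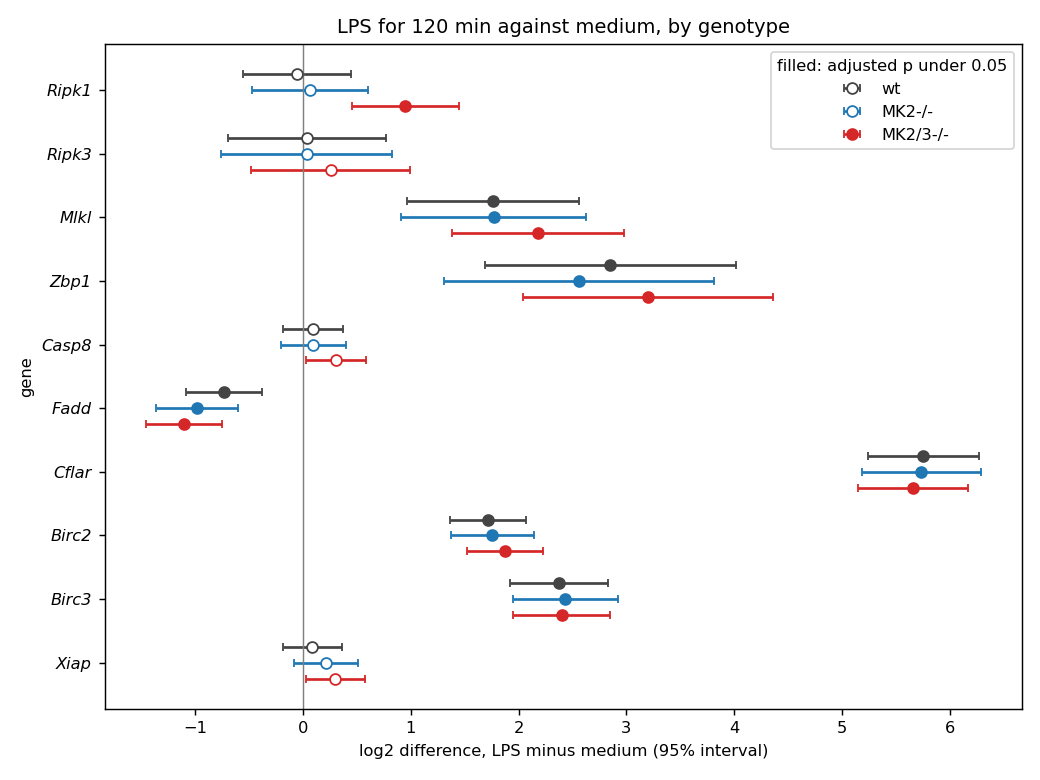
Log2 difference between LPS and medium (x axis) for each gene (y axis) in wt, MK2-/- and MK2/3-/- BMDM, with 95% intervals from limma; filled points passed an adjusted p of 0.05. Cflar lies between 5.66 and 5.75 in all 3 genotypes, and Ripk1 is away from 0 in MK2/3-/- BMDM alone.

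Among the inhibitors, Cflar, whose product cFLIP occupies FADD and caspase-8, showed the largest change of the 10. Its level was 8.40, 9.22, 8.67 and 9.03 in wt medium and 14.12, 15.05, 14.80 and 14.38 in wt LPS. In MK2-/- BMDM it was 8.58, 9.45 and 9.20 in medium and 14.34, 15.08, 14.90 and 14.91 in LPS. In MK2/3-/- BMDM it was 9.24, 9.63, 9.07 and 9.09 in medium and 14.84, 15.29, 14.87 and 14.65 in LPS. Every LPS array stood far above every medium array, and the genotypes overlapped within each treatment. The difference was 5.75 ± 0.24 (SE; 54.0-fold) in wt, 5.73 ± 0.26 (53.2-fold) in MK2-/- and 5.66 ± 0.24 (50.5-fold) in MK2/3-/- BMDM (limma, adjusted p = 2.98e-12, 1.3e-11 and 3.88e-12). The other 2 Cflar probes, which are assigned to another Cflar transcript, gave smaller differences of 4.28 to 4.34 and of 4.38 to 4.53 over the 3 genotypes. Each was past the threshold when every probe was fitted on its own. The probe used for Cflar was chosen because LPS raised it most in wt BMDM, so its larger difference in wt BMDM was fixed by that choice.

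Birc2, the cIAP1 gene, was at 9.56, 9.64, 9.96 and 9.82 in wt medium and at 11.09, 11.42, 11.88 and 11.46 in wt LPS. The MK2-/- arrays were at 10.13, 9.99 and 9.88 in medium and at 11.96, 11.65, 11.78 and 11.64 in LPS. In MK2/3-/- BMDM it was at 9.28, 9.60, 10.02 and 9.83 in medium and at 11.55, 11.67, 11.35 and 11.66 in LPS. The lowest LPS array was thus above the highest medium array in each genotype. Birc2 rose by 1.72 ± 0.17 (SE), 1.76 ± 0.18 and 1.88 ± 0.17 in wt, MK2-/- and MK2/3-/- BMDM, that is 3.29- to 3.67-fold (limma, adjusted p = 4.13e-07, 7.74e-07 and 8.44e-08).

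Birc3, the cIAP2 gene, was at 9.89, 10.01, 10.20 and 9.98 in wt medium and at 12.35, 12.37, 12.51 and 12.35 in wt LPS, where the arrays lay close together (SD 0.08, n = 4). The MK2-/- arrays were at 10.35, 10.24 and 10.31 in medium and at 12.86, 12.39, 12.31 and 13.37 in LPS. In MK2/3-/- BMDM it was at 10.17, 10.02, 10.12 and 10.25 in medium and at 12.76, 12.72, 11.81 and 12.87 in LPS. The spread after LPS was wider in the kinase-deficient groups (SD 0.49 in both), with replicate 4 high in MK2-/- and replicate 3 low in MK2/3-/- BMDM. Birc3 rose by 2.37 ± 0.22 (SE), 2.43 ± 0.23 and 2.40 ± 0.22 in the 3 genotypes (limma, adjusted p = 1.31e-07, 2.73e-07 and 7.66e-08).

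Xiap, the remaining member of this family of BIR-domain proteins, had 12.51 to 13.00 in wt medium and 12.73 to 13.16 in wt LPS. It had 12.96 to 13.21 and 13.14 to 13.53 in MK2-/- BMDM, and 12.87 to 12.96 and 13.10 to 13.33 in MK2/3-/- BMDM. Medium and LPS overlapped in wt and MK2-/- and lay apart in MK2/3-/- BMDM (exact two-sided permutation p = 0.0286, the smallest that 4 against 4 allows). Its differences of 0.09 (95% interval -0.19 to 0.36), 0.21 (-0.08 to 0.51) and 0.30 (0.03 to 0.58) did not pass the threshold (adjusted p = 0.779, 0.36 and 0.107). The last crossed it with scaling to the 75th percentile, where the difference was 0.64 (adjusted p = 0.00983), with normexp background correction (adjusted p = 0.0395), with culture as a block (adjusted p = 0.0445) and with the methods' t-test (adjusted p = 0.0193); over the alternatives other than leaving out an array, its adjusted p ran from 0.00983 to 0.213. Over the same alternatives its difference reached 0.39 in wt (lowest adjusted p = 0.152) and 0.54 in MK2-/- BMDM (lowest adjusted p = 0.0555). Xiap was 0.21 to 0.39 higher after LPS in 4 of 4 MK2/3-/- cultures. It was also higher in 3 of 3 MK2-/- cultures (0.18 to 0.32) and in 3 of 4 wt cultures (-0.18 to 0.245).

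Of the necroptosis genes, Mlkl, the executor, was at 9.77, 9.12, 9.60 and 9.41 in wt medium and at 11.54, 11.52, 11.49 and 10.41 in wt LPS. In MK2-/- BMDM it was at 10.32, 9.07 and 9.46 in medium and at 11.72, 12.06, 11.03 and 10.73 in LPS. The MK2/3-/- arrays were at 10.28, 9.35, 9.40 and 9.39 in medium and at 12.26, 12.27, 11.87 and 10.75 in LPS. LPS and medium did not overlap in any genotype, and replicate 4 was the lowest LPS array in all 3. Mlkl rose by 1.76 ± 0.38 (SE), 1.77 ± 0.41 and 2.18 ± 0.38 (limma, adjusted p = 0.00233, 0.00398 and 0.000217). With the methods' t-test its change in MK2-/- BMDM was not called (adjusted p = 0.0744; over the alternatives, leaving out an array aside, from 0.000484 to 0.0744).

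Zbp1, the nucleic acid sensor, varied widely within groups, with SDs between 0.55 and 0.96. It was at 9.62, 10.89, 11.32 and 10.02 in wt medium and at 13.08, 14.12, 13.93 and 12.12 in wt LPS. Its level in MK2-/- BMDM was 11.38, 10.06 and 11.13 in medium and at 13.57, 14.13, 12.94 and 13.02 in LPS. The MK2/3-/- arrays were at 11.88, 10.66, 9.78 and 10.27 in medium and at 14.45, 14.67, 13.71 and 12.54 in LPS. Replicate 2 was the highest LPS array in each genotype, and the LPS arrays were above the medium arrays throughout. Zbp1 rose by 2.85 ± 0.55 (SE), 2.56 ± 0.60 and 3.20 ± 0.55, from 5.89- to 9.18-fold (limma, adjusted p = 0.000937, 0.00431 and 0.000208). Its second probe, assigned to another Zbp1 transcript, gave 1.87 ± 0.79, 2.13 ± 0.85 and 2.50 ± 0.79. This probe passed only in MK2/3-/- BMDM when probes were fitted on their own (limma, adjusted p = 0.119, 0.0906 and 0.023), so the probes of Zbp1 did not give the same calls. The first Zbp1 probe was chosen because LPS raised it most in wt BMDM, so its larger rise in wt BMDM was fixed by that choice.

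**Figure D3:**
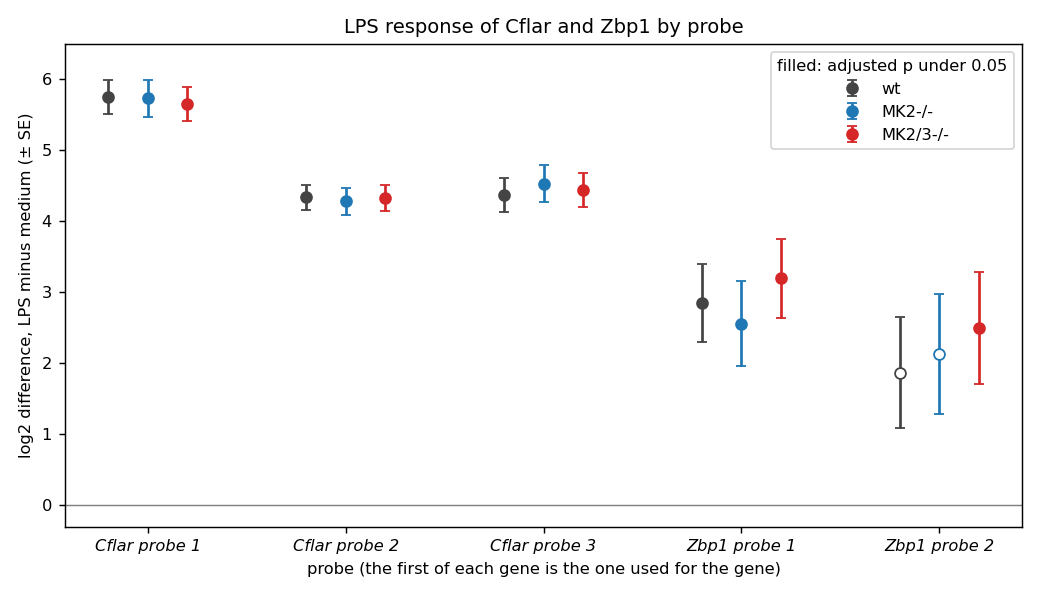
Log2 difference between LPS and medium ± SE (y axis) for each of the 3 Cflar and 2 Zbp1 probes (x axis) in the 3 genotypes, from a fit of every probe on its own; filled points passed an adjusted p of 0.05. The first probe of each gene was chosen as the probe that LPS raised most in wt BMDM, so its lead in wt BMDM was fixed by that choice. The first Cflar probe also lies above the other 2 in MK2-/- and MK2/3-/- BMDM. The second Zbp1 probe is filled in MK2/3-/- BMDM alone.

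Ripk3, the kinase that phosphorylates MLKL, was not called. It ran from 11.43 to 12.98 in wt medium and from 11.44 to 12.67 in wt LPS, from 11.08 to 12.52 and from 11.07 to 12.31 in MK2-/- BMDM, and from 11.49 to 11.80 and from 11.78 to 11.97 in MK2/3-/- BMDM. The highest arrays of the first 4 groups were all replicate 1 (12.98, 12.67, 12.52 and 12.31). This replicate carries the same culture letter in the deposited arrays and lay in the same slide column. The difference between LPS and medium was 0.04 (95% interval -0.70 to 0.77) in wt, 0.04 (-0.76 to 0.83) in MK2-/- and 0.26 (-0.48 to 0.99) in MK2/3-/- BMDM (limma, adjusted p = 0.979, 0.975 and 0.679). These intervals reach changes of up to 0.99, and the signs in wt and MK2-/- BMDM turned when single arrays were left out. Within cultures, Ripk3 was higher after LPS in 4 of 4 MK2/3-/- cultures, by 0.17 to 0.38. It was higher in 1 of 3 MK2-/- cultures (-0.21 to 0.08) and in 2 of 4 wt cultures (-0.31 to 0.45). Its SDs were 0.15 and 0.08 in MK2/3-/- medium and LPS, and 0.54 to 0.73 in the other groups.

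Of the apoptosis genes, Fadd, the adaptor that recruits caspase-8, was the only member that fell. It was at 9.22, 9.70, 9.58 and 9.38 in wt medium and at 8.58, 8.45, 8.96 and 8.97 in wt LPS. In MK2-/- BMDM it was at 9.38, 9.48 and 9.53 in medium and at 8.33, 8.49, 8.51 and 8.59 in LPS. The MK2/3-/- arrays were at 9.75, 9.61, 9.38 and 9.18 in medium and at 8.15, 8.08, 8.72 and 8.56 in LPS. All LPS arrays lay below all medium arrays of their genotype. Fadd fell in each, with differences of -0.73 ± 0.17 (SE), -0.98 ± 0.18 and -1.099 ± 0.17 for wt, MK2-/- and MK2/3-/- (limma, adjusted p = 0.00409, 0.000532 and 5.47e-05).

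Casp8, the initiator caspase, had 11.65 to 11.96 in wt medium and 11.71 to 12.08 in wt LPS. It had 11.97 to 12.27 and 11.95 to 12.49 in MK2-/- BMDM, and 11.66 to 11.95 and 11.92 to 12.24 in MK2/3-/- BMDM. Medium and LPS overlapped in each genotype. The differences were 0.09 (95% interval -0.19 to 0.37), 0.10 (-0.21 to 0.40) and 0.31 (0.03 to 0.59), none past the threshold (limma, adjusted p = 0.754, 0.753 and 0.108). With scaling to the 75th percentile the difference in MK2/3-/- BMDM was 0.52 and was called (adjusted p = 0.0167), as it was with culture as a block (adjusted p = 0.0424; over the alternatives, leaving out an array aside, from 0.0167 to 0.169). Arrays of the same culture letter were 0.06 to 0.11 higher after LPS in 4 of 4 wt cultures, 0.12 to 0.21 higher in 3 of 3 MK2-/- cultures and 0.17 to 0.49 higher in 4 of 4 MK2/3-/- cultures.

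Ripk1 itself was called after LPS in MK2/3-/- BMDM alone. Its level was 11.24, 11.47, 11.47 and 11.23 in wt medium and 11.27, 11.67, 11.36 and 10.89 in wt LPS. In MK2-/- BMDM it was 11.54, 11.63 and 11.27 in medium and 11.46, 11.79, 11.44 and 11.49 in LPS. In MK2/3-/- BMDM it was 11.23, 11.45, 11.49 and 11.20 in medium and 12.71, 13.02, 11.84 and 11.61 in LPS. All MK2/3-/- LPS arrays were above the MK2/3-/- medium arrays, with replicates 1 and 2 more than 1 above them and replicates 3 and 4 close to them. The difference was -0.05 (95% interval -0.55 to 0.44) in wt, 0.07 (-0.47 to 0.60) in MK2-/- and 0.95 (0.45 to 1.45; 1.93-fold) in MK2/3-/- BMDM (limma, adjusted p = 0.946, 0.925 and 0.00536). Within cultures, Ripk1 was higher after LPS in 4 of 4 MK2/3-/- cultures, by 0.35 to 1.57, in 2 of 3 MK2-/- cultures (-0.07 to 0.22) and in 2 of 4 wt cultures (-0.34 to 0.20). The call in MK2/3-/- BMDM was lost when only its 2 groups were fitted (adjusted p = 0.085) and with the methods' t-test (adjusted p = 0.122), over a range of 0.00104 to 0.122 for the alternatives that kept every array or left out a pair.

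**Figure D4:**
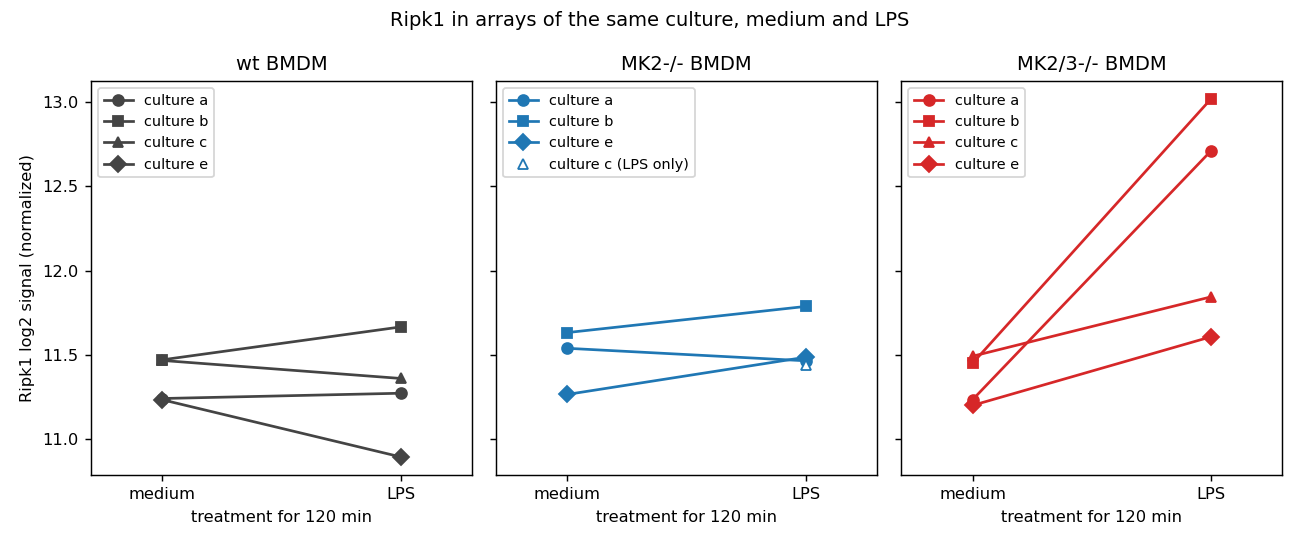
Normalized log2 signal of Ripk1 (y axis) in medium and after LPS for 120 min (x axis), with lines joining arrays that carry the same culture letter, for wt, MK2-/- and MK2/3-/- BMDM. The lines of all 4 MK2/3-/- cultures go up, by 0.35 to 1.57, and those of wt and MK2-/- cultures stay between -0.34 and 0.22.

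The difference between the LPS responses of Ripk1 was 1.01 (95% interval 0.30 to 1.71) for MK2/3-/- against wt and 0.88 (0.15 to 1.62) for MK2/3-/- against MK2-/- BMDM. Neither passed the threshold over all genes (limma, unadjusted p = 0.00763 and 0.0208, adjusted p = 0.781 and 1), so a response of Ripk1 that is particular to MK2/3-/- BMDM was not established. In limma, 0 of the 10 members were called in the 3 comparisons of LPS responses, MK2-/- against wt, MK2/3-/- against wt and MK2/3-/- against MK2-/- (0.00377%, 0.0113% and 0% of all genes were), with 0, 1 and 1 members at an unadjusted p under 0.05, in both cases Ripk1. The share of all genes at that unadjusted threshold is not given here, so the counts at it are description only. The interaction estimates of the other 9 genes lay between -0.37 and 0.64. Their 95% intervals reached from -2.001 to 2.35, widest for Zbp1.

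Comparing genotypes in medium, limma called 0 of 10 members for MK2-/- against wt, MK2/3-/- against wt and MK2/3-/- against MK2-/- BMDM, against 0.00754%, 0.0792% and 0.0453% of all genes. At an unadjusted p under 0.05 there were 0, 0 and 1 members, the last being Casp8 with a log2 difference of -0.34 ± 0.14 (SE; limma, adjusted p = 1). The methods' t-test called 0 in each after Benjamini-Hochberg adjustment, and 1, 0 and 1 at its unadjusted threshold. Shares of all genes at either unadjusted threshold are not given here, so the counts at them are description only. The limma estimates of the members lay between -0.34 and 0.43, with 95% intervals from -1.47 to 1.65. Arrays did not overlap for 2 (Casp8 and Birc3), 0 and 2 (Casp8 and Xiap) members, and for 7.01%, 4.05% and 6.46% of all genes.

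After LPS, Ripk1 was called for MK2/3-/- against wt BMDM, 1 of 10 members where 1.64% of all genes were called. It was 1.00 ± 0.24 (SE; 95% interval 0.498 to 1.495) higher in MK2/3-/- BMDM (limma, adjusted p = 0.0397). The arrays overlapped, since the lowest MK2/3-/- array (11.61) lay below the highest wt array (11.67), and the exact two-sided permutation p was 0.0571. Against MK2-/- BMDM Ripk1 was 0.75 ± 0.24 (SE) higher in MK2/3-/- BMDM, short of the threshold (adjusted p = 0.32), and MK2-/- exceeded wt BMDM by 0.25 ± 0.24 (adjusted p = 0.842). The call rested on single arrays: without wt LPS replicate 1, 3 or 4 the adjusted p was 0.112, 0.0505 or 0.151, and without MK2/3-/- LPS replicate 1 or 2 it was 0.121 or 0.123. It was also lost when only the 2 groups were fitted (adjusted p = 0.432), with the methods' t-test (adjusted p = 0.522) and without the pair of arrays that had no gradient fit (adjusted p = 0.0599), while the difference itself stayed between 0.76 and 1.23 over all alternatives.

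Other measures were also compared between these genotypes after LPS. Of the ranges given here, all overlapped except those of the share of probes well above background. The share of probes well above background was 48.5% to 55.4% in MK2/3-/- LPS and 56.2% to 60.8% in wt LPS, without overlap. The summed signal of the NK cell markers Ncr1 and Klrb1c was 5.27 to 8.19 in MK2/3-/- LPS and 3.51 to 5.43 in wt LPS on the log2 scale, with Ncr1 above background on 1 of 4 arrays in each group and Klrb1c on 4 of 4 against 2 of 4. The 3 fibroblast markers (Col1a1, Col1a2 and Col3a1) summed to 9.75 to 15.58 in MK2/3-/- LPS and to 11.91 to 16.42 in wt LPS, and the 3 T cell markers to 10.22 to 11.14 and 10.11 to 10.64. Singly, Col1a1, Col1a2 and Col3a1 averaged 10.20, 12.04 and 6.97 in MK2/3-/- LPS and 12.18, 14.03 and 8.25 in wt LPS. The 5 neutrophil markers summed to 11.67 to 13.96 and 11.98 to 13.59, and the 3 dendritic cell markers to 12.67 to 13.90 and 11.61 to 13.24. Their part in the Ripk1 difference was not tested.

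In limma, 0 of 10 members were called after LPS for MK2-/- against wt (0.0302% of all genes) and for MK2/3-/- against MK2-/- BMDM (0.158%). There was 1 member in each at an unadjusted p under 0.05, Xiap in the first, 0.36 ± 0.13 (SE) higher in MK2-/- BMDM (adjusted p = 0.568), and Ripk1 in the second, and the methods' t-test called 0 in both after adjustment. For MK2/3-/- against wt BMDM, the unadjusted p was under 0.05 for 3 members, Ripk1, Fadd (0.36 ± 0.17 lower, adjusted p = 0.352) and Xiap (0.30 ± 0.13 higher, adjusted p = 0.326). Shares of all genes at an unadjusted p under 0.05 are not given here, so these counts are description only. Arrays overlapped between genotypes after LPS for all 10 members in all 3 comparisons, while they did not for 3.73%, 5.83% and 5.15% of all genes in MK2-/- against wt, MK2/3-/- against wt and MK2/3-/- against MK2-/- BMDM. The 95% interval for MK2/3-/- against wt BMDM ran from 0.02 to 0.57 for Xiap, from -0.18 to 0.38 for Casp8 and from -0.63 to 1.69 for Zbp1, the widest. A missed threshold here does not show that the genotypes had the same level.

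**Figure D5:**
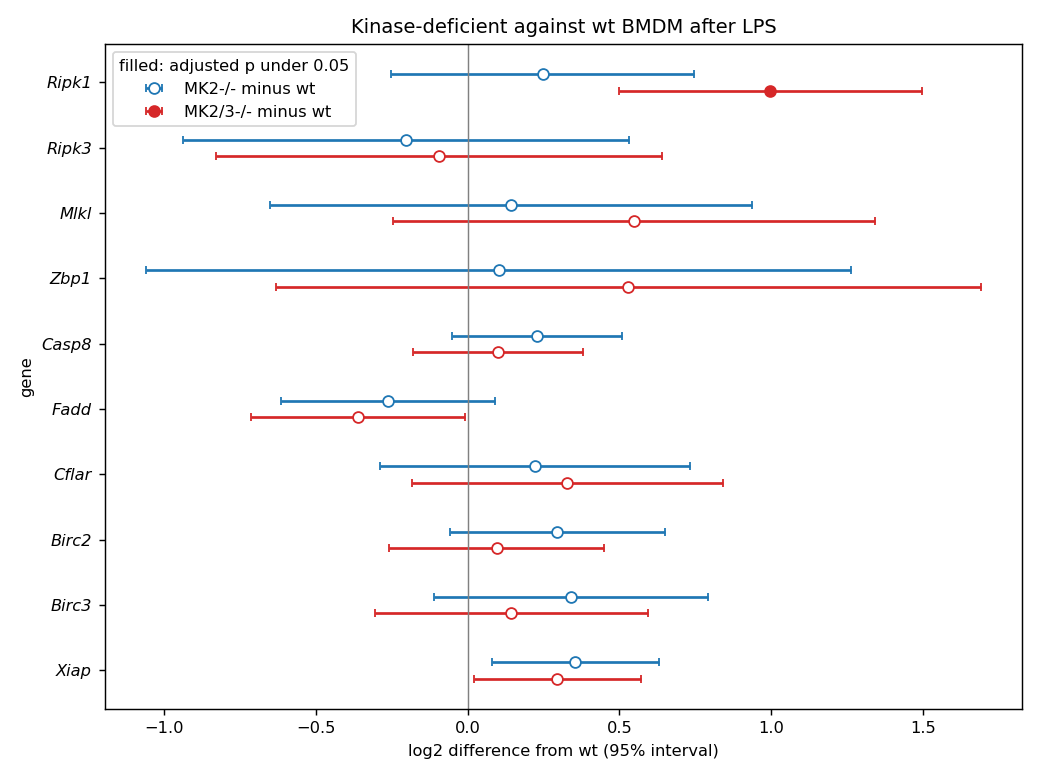
Log2 difference from wt BMDM after LPS (x axis) for each gene (y axis) in MK2-/- and MK2/3-/- BMDM, with 95% intervals from limma; the filled point passed an adjusted p of 0.05. Ripk1 in MK2/3-/- BMDM, at 1.00, is the filled point, and the intervals of Zbp1 and Mlkl are the widest of the 10 genes.

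Ranked by group mean, Cflar, Birc2, Birc3, Mlkl and Zbp1 had the 3 LPS groups on top and the 3 medium groups below, and Fadd the reverse. The ranges of neighbouring groups overlapped within each treatment and were apart between the treatments for all 6 genes. For Ripk1, Ripk3, Casp8 and Xiap the ranges of every pair of neighbours in the order overlapped. MK2/3-/- LPS was the group with the highest mean of Ripk1, Mlkl, Cflar and Zbp1, and MK2-/- LPS that of Casp8, Birc2, Birc3 and Xiap.

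As a description of pattern, the non-member gene whose signal correlated best with each member over the 23 arrays was found among 15920 genes that were well above background on every array of at least 1 group. The 23 arrays share their treatment, so these values mostly restate which genes differ between LPS and medium. Cflar was closest to Cd40 (Pearson's r = 0.998), Birc3 to Nfkbiz (0.983), Birc2 to Gpbp1 (0.982), Zbp1 to Isg20 (0.983) and Mlkl to Pstpip2 (0.966). Fadd was closest to Zfp768 (0.966), Ripk1 to Armcx6 (0.907), Xiap to Zmynd15 (0.895), Ripk3 to Acot7 (0.865) and Casp8 to Gm8369 (0.852).

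The pathway around these 10 genes was described with 59 further genes in 4 lists, all of them measured. LPS raised 23 and lowered 9 of the 59 in wt, raised 24 and lowered 11 in MK2-/-, and raised 29 and lowered 10 in MK2/3-/- BMDM, where 8.16%, 8.41% and 11.9% of all genes rose and 8.78%, 9.98% and 12.8% fell. The median log2 differences of the 59 were 0.47, 0.50 and 0.60. These lists too were chosen with earlier results of these data known. Among 15 genes of the TNF and Toll-like receptor inputs, 9, 8 and 10 rose and 3, 2 and 2 fell in wt, MK2-/- and MK2/3-/- BMDM. Tnf, the ligand of the pathway, rose by 8.02 ± 0.37 (SE), 7.51 ± 0.40 and 6.98 ± 0.37 (limma, adjusted p = 9.13e-12, 1.12e-10 and 7.6e-11). Ifnb1, the interferon-β gene, rose as well (adjusted p = 2.64e-13, 8.87e-12 and 1.6e-12), to 14.87 ± 0.65 (SD, n = 4), 13.15 ± 1.12 and 13.69 ± 0.72, and no fold is given because its probe was well above background on only 13 of 23 arrays. Among 18 genes of ubiquitin editing and of the kinases at RIPK1, 10, 10 and 11 rose and 3, 4 and 3 fell. Tnfaip3, which edits the ubiquitin on RIPK1, rose by 6.78 ± 0.23, 6.49 ± 0.25 and 6.66 ± 0.23, its partner Tnip1 by 3.15 ± 0.13, 2.97 ± 0.14 and 2.97 ± 0.13, and the ubiquitin ligase gene Peli1 by 3.90 ± 0.18, 3.50 ± 0.19 and 3.50 ± 0.18.

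Of 12 genes of caspases and their targets, 2, 2 and 5 rose and 2, 3 and 3 fell, with the inflammasome gene Nlrp3 rising by 4.45 ± 0.24 (SE), 4.06 ± 0.26 and 4.39 ± 0.24. Of 14 genes for other RIP kinases, BIR proteins and modifiers of necroptosis, 2, 4 and 3 rose and 1, 2 and 2 fell, closer to the shares of all genes than the 59 together were. In the genotype comparisons only MK2/3-/- against wt BMDM after LPS had calls among the 59, and there were 2, both higher in MK2/3-/- BMDM, against 1.64% of all genes called. They were Birc6, a large BIR-domain ubiquitin ligase, at 10.47 ± 0.12 (SD, n = 4) against 9.47 ± 0.50 (n = 4; difference 1.00 ± 0.24, SE; adjusted p = 0.0404), and Apaf1, the scaffold of the apoptosome, at 9.84 ± 0.16 against 9.13 ± 0.36 (difference 0.70 ± 0.18, SE; adjusted p = 0.0485). Tnfrsf1a, the TNF receptor that recruits RIPK1, differed by 0.55 ± 0.17 (SE) and Traf5, an adaptor at that receptor, by 0.48 ± 0.18, neither called (adjusted p = 0.134 and 0.233).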

How the data were processed

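Total RNA of 23 BMDM samples was hybridised by the authors to 1-colour Agilent whole mouse genome arrays. The deposited scanner files hold spot intensities (background-subtracted and detrended, not normalized between arrays) from Agilent Feature Extraction 11.0.1.1, with outlier and detection marks, per the file headers. The authors' deposited value table holds log2 values, which correlated with the values computed here (r = 1 over genes centred on their means) and served as an alternative. Intensities of flagged spots were left out (258 missing values), the rest were put on the log2 scale, averaged per probe and quantile normalized over all arrays, as in the authors' methods. Of 55681 probes, 33391 carry an NCBI accession, and they gave 26512 genes (20887 with a symbol from the RefSeq table), each read from whichever of its probes LPS raised most in wt BMDM, as in the methods. Analyses used limma 3.58.1 in R 4.3.3, 1 fit of 6 groups, with Benjamini-Hochberg adjustment over all genes at 0.05, and exact two-sided permutation tests for single members. No column of unknown sample was used, the number of arrays limits the precision, and no spot was saturated.

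The members and lists were chosen with earlier results of these data known. Named genes were the 10 members with every probe, both targeted kinases, the 6 pathway genes with the smallest p for LPS in wt BMDM, the 4 with the smallest p for MK2/3-/- against wt BMDM after LPS, and 1 most alike gene per member. Alternatives were scaling to the 75th percentile, normexp background, the deposited log2 values, an intensity floor of 5, a filter on dim probes, other choices of probe, fits of the compared groups alone, the methods' t-test, blocks by culture or experiment and leaving out arrays; 2 that left out doubtful arrays were chosen after seeing the data. Promoters came from RefSeq (GRCm38.p6; the array headers name mm9). Protein sequences were not used here. Arrays of a group came from independent experiments, per the methods, with 3 or 4 such arrays a group. The p-values of the main limma fit rest on a spread between arrays pooled over all 6 groups, not on that of the compared groups alone. Ripk1 thus had the same SE (0.24) for LPS in wt and in MK2/3-/- BMDM. Its SD was 0.32 in wt LPS and 0.68 in MK2/3-/- LPS. The fit was tested on simulated arrays.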

Additional observations from a re-analysis of the deposited data

Results flagged for a closer look

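In 7 of 50 combinations of a member with a group of 4 arrays, 1 array lay far from the other 3, its gap to the nearest of them taking more of the group's range than Dixon's 95% critical value for 4 samples allows; chance gives such a gap in about 5% of such combinations. The array of Ripk1 in MK2-/- LPS replicate 2 was high, with a ratio of gap to range of 0.873. Ripk3 in wt medium replicate 1 was high (0.844). Mlkl was low in wt LPS replicate 4 (0.959) and high in MK2/3-/- medium replicate 1 (0.945). Casp8 was low in wt LPS replicate 4 (0.834). Birc3 was high in wt LPS replicate 3 (0.881), where the 4 arrays spanned only 12.35 to 12.51, and low in MK2/3-/- LPS replicate 3 (0.861).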

How the results depend on the processing

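Number of arrays and the single slide per genotype limit what these data show, and slide as a block could not be fitted because it equals genotype. For 39 member results, 479 values were followed singly under the alternatives other than leaving out single arrays. Of these values 460 kept their direction and their side of the threshold. The 81 other member results are not among them and are described below. The count of members called for MK2/3-/- against wt BMDM after LPS was 0 in place of 1 when only those 2 groups were fitted, with the methods' t-test and without both arrays that had no gradient fit, and it ran from 0 to 1 when single arrays were left out. Small differences that were never called changed sign. With scaling to the 75th percentile, which moved the median of all genes by 0.14, 0.21 and 0.09 for LPS in wt, MK2-/- and MK2/3-/- BMDM, Ripk1 changed by 0.10 with LPS in wt BMDM and differed by 0.0719 for MK2/3-/- against wt BMDM in medium. With normexp, the LPS differences in MK2-/- BMDM were -0.0123 for Ripk1 and -0.0343 for Casp8, and Ripk1 differed by 0.0343 for MK2/3-/- against wt BMDM in medium. Without both arrays that had no gradient fit, the LPS differences in MK2-/- BMDM were -0.0033 for Casp8 and -0.15 for Ripk3. The causes were not tested.

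With single arrays left out, the LPS difference in wt BMDM ran from -0.18 to 0.0796 for Ripk1, from -0.20 to 0.39 for Ripk3 and from -0.0239 to 0.15 for Xiap. In MK2-/- BMDM it ran from -0.0404 to 0.14 for Ripk1, from -0.29 to 0.43 for Ripk3 and from -0.0033 to 0.19 for Casp8. For Ripk1 the difference of MK2/3-/- from wt BMDM in medium ran from -0.0581 to 0.0392, and that of the LPS responses of MK2-/- and wt BMDM from -0.0133 to 0.24. A further 81 genotype and interaction values of members were followed only as ranges; 40 of them changed sign at least once and 0 were called in any setting.

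Culture letters, taken from the deposited arrays, matched medium with LPS arrays in both sets of genes used. Correlations of same-culture deviations were above 0.1 for 10 of 11 pairs over 26399 genes (0.0626 to 0.561, median 0.252). Over the 12734 genes that exceeded background throughout, it was 11 of 11 (0.36 to 0.774, median 0.49). Other cultures of the same genotype had medians of -0.0784 and -0.19. Arrays of different genotypes had medians of 0.142 and 0.27 where they shared a letter and of -0.0583 and -0.104 where they did not. The labels do not state whether a letter shared between genotypes marks the same experiment. In both sets each of 11 medium arrays correlated best with the LPS array of its own culture, and the labels gave the mice of each pair the same age. The letters also followed the slide column on every slide, so in these correlations culture and column cannot be told apart. With culture as a replicate block (consensus correlation 0.239), 9 instead of 7 members were called for LPS in MK2/3-/- BMDM, the added ones being Casp8 (adjusted p = 0.0424) and Xiap (adjusted p = 0.0445), and no other count of members changed. Over all genes, calls for LPS went from 4493 to 5758 in wt, from 4876 to 6223 in MK2-/- and from 6549 to 8124 in MK2/3-/- BMDM.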
